A study of Homo sapiens with 6 samples.

Results

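The genes described here supply, salvage and remove deoxynucleoside triphosphates (dNTPs), the building blocks of DNA. They were picked by symbol, namely RRM1, RRM2, RRM2B, TYMS, TK1, DCK, DUT, DTYMK and SAMHD1, and all 9 were found among the 21857 genes of the count table and were among the 13531 tested. They were measured by bulk RNA sequencing in MV4;11, a human acute myeloid leukemia cell line. 3 libraries came from cells given 10 µg/ml FKA (flavokawain A, a chalcone of the kava plant) for 48 h, and 3 came from control cells without FKA; the labels do not state a vehicle. Cells of both groups carry the internal tandem duplication FLT3-ITD and the fusion MLL-AF4, and both were grown from the same line, so the libraries speak for 1 line. Each of the 3 batch numbers in the labels holds 1 FKA and 1 control library.

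Total gene counts were 29971171 to 33183376 in the FKA libraries and 33759185 to 36362421 in the control libraries. All 8 listed markers of the line and its lineage were detected in every library, with PTPRC at 613 to 759 CPM (counts relative to the library total, scaled between libraries by TMM) in FKA libraries and 453 to 615 CPM in control libraries. Of these 8, 2 were called higher with FKA, 1 lower and 5, PTPRC among them, were not called. MEIS1 rose (log2 fold change 0.58, edgeR adjusted p = 0.0434) and HOXA9 fell (-0.52, edgeR adjusted p = 0.0437). MEIS1 lost its call without control replicate 1 (edgeR adjusted p = 0.123), and HOXA9 lost its call with library totals (edgeR adjusted p = 0.153). In bulk RNA, fewer cells in S phase and less RNA per cell cannot be told apart. Nothing in the labels says whether the replicates were separate cultures, so p-values measure the spread between these samples, which may be technical.

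Ribonucleotide reductase makes deoxynucleotides from ribonucleotides. Its large subunit is RRM1, and its small subunit is either RRM2, which is made for S phase, or RRM2B, which DNA damage can induce and which serves resting cells and mitochondrial DNA. Thymidylate is built by the synthase TYMS from dUMP, which the dUTPase DUT provides, and is phosphorylated by the kinase DTYMK. TK1 and DCK salvage thymidine and deoxycytidine in the cytosol, and DCK also activates the leukemia drug cytarabine. SAMHD1 works the other way, cleaving dNTPs to nucleosides, and it inactivates the triphosphate of cytarabine; cyclin A with CDK1 or CDK2 phosphorylates it in dividing cells.

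Sequences before the transcription start are shown for the 3 genes that fell most, for DUT, which holds the most words of the E2F kind, and for SAMHD1, the gene that rose. Each is the stretch of 150 bases before the most downstream start listed by RefSeq (GRCh38.p14), read along the gene, with matched words in capitals. The words searched on both strands were the CCAAT box (CCAAT, or ATTGG on the other strand), the cell cycle homology region (TTTGAA) and 4 E2F words (TTTGGCGC, TTTGCCGC, TTTCGCGC and TTTCCCGC).
RRM2 (chr2:10122589-10122738, plus strand): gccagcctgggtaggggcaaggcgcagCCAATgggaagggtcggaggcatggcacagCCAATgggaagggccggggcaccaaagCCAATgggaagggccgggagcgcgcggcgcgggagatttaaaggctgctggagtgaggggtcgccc
TK1 (chr17:78187053-78187202, minus strand): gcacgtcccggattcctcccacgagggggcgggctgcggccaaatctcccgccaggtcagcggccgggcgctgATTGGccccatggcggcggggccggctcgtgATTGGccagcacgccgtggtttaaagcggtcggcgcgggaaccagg
TYMS (chr18:657503-657652, plus strand): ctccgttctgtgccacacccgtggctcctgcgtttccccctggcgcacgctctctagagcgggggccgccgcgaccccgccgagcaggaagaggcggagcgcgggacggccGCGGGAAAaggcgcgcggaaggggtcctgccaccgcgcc
DUT (chr15:48332047-48332196, plus strand): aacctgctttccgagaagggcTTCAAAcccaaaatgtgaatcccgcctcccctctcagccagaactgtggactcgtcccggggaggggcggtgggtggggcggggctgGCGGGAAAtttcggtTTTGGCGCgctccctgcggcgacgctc
SAMHD1 (chr20:36951709-36951858, minus strand): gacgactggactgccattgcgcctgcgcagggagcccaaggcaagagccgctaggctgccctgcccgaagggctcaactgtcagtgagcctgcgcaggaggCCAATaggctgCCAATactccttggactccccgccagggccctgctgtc
In RRM2 the CCAAT word began at positions -123, -93 and -66, counted back from the start. TK1 held it on the opposite strand from -77 and -46, while SAMHD1 held it on its own strand from -49 and -38. The E2F word TTTCCCGC lay on the opposite strand from -39 in TYMS and from -42 in DUT, where TTTGGCGC followed from -27. DUT also held TTTGAA on the opposite strand from -129. No matched words overlapped one another. Over the 250 bases before any listed start, which were available for 8 of the 9 genes, an E2F word was found in 2 genes, against 5.68% of the 10608 tested genes with a sequence. A CCAAT box was found in 5 of the 8, against 41.0%, and TTTGAA in 2, against 12.0%. A match is a run of letters, not a measured binding site. DUT has 4 listed starts, and the one shown is the fourth; the counts cannot tell transcripts of different starts apart.

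In FKA-treated cells 7 of the 9 transcripts fell, SAMHD1 rose and RRM2B did not pass the test (edgeR quasi-likelihood test, Benjamini-Hochberg adjusted p under 0.05 over all tested genes). Of all tested genes 59.8% passed in either direction, 30.5% lower and 29.3% higher with FKA. Scaled by library totals alone, 4993 genes were called higher and 3282 lower, where TMM scaling gave 3959 higher and 4131 lower. All 7 falls were at least 2-fold, and so was the rise, where 13.7% of all tested genes were called at least 2-fold lower and 11.9% at least 2-fold higher. The groups did not overlap for 8 of the 9 genes, against 67.3% of all tested genes. For 7 of the 9 each FKA library lay below each control library, against 33.6% of all tested genes. The median log2 fold change of the 9 was -1.90, and that of all tested genes was 0.01. The falls came in 2 sizes. RRM2, TK1 and TYMS fell at least 35.7-fold, whereas DTYMK, DUT, RRM1 and DCK fell between 2.80- and 4.06-fold.

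**Figure D1:**
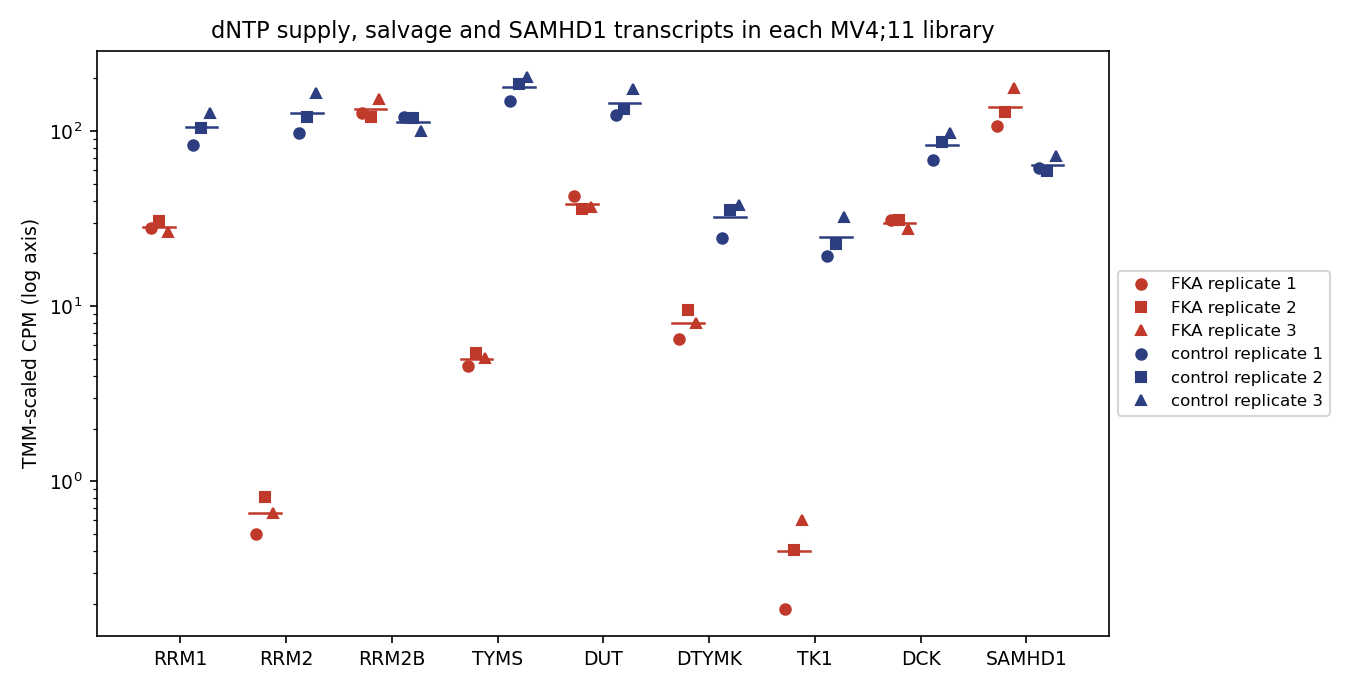
TMM-scaled CPM (log axis) of the 9 genes in each library, with FKA libraries in red left of control libraries in blue, replicates as symbols and group means as lines. RRM2 and TK1 lay below 1 CPM in each FKA library, RRM2B overlapped between groups and SAMHD1 stood higher in each FKA library.

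RRM2, the S-phase small subunit of ribonucleotide reductase, had 16, 26 and 23 counts in the FKA libraries, against 3009, 4319 and 5538 counts in the control libraries. Scaled, these were 0.497, 0.813 and 0.662 CPM with FKA and 96.8, 120.7 and 164.8 CPM in control. Each FKA library lay far below the lowest control. RRM2 averaged 0.657 ± 0.158 CPM with FKA and 127 ± 34.5 CPM in control (SD, n = 3 each), a log2 fold change of -7.59 (SE 0.27, edgeR adjusted p = 9.0e-07), or 193-fold lower. It was the 8th lowest log2 fold change of the 13531 tested genes. The genes whose log2 CPM profiles over the 6 libraries lay nearest to RRM2 were MCM10 (distance 0.093), CDC45 (0.784) and EXO1 (0.893), among 11717 genes compared. Their log2 fold changes were -7.76, -7.47 and -7.00, and values near that of RRM2 follow from this choice by profile.

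RRM1, the large catalytic subunit that both small subunits need, fell much less. It stood at 28.1, 30.4 and 26.4 CPM with FKA, against 83.6, 104 and 127 CPM in control. The groups were separate, and the log2 fold change was -1.89 (SE 0.15, edgeR adjusted p = 1.8e-05). The within-batch differences were -1.57, -1.77 and -2.26 on the log2 scale.

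RRM2B, the alternative small subunit, did not pass. Its libraries stood at 127, 119 and 152 CPM with FKA and at 121, 118 and 101 CPM in control, so the lowest FKA library lay between control values. The log2 fold change was 0.23 (SE 0.12, edgeR adjusted p = 0.112), with within-batch differences of 0.08, 0.01 and 0.59, the largest in batch 3. Scaled by library totals alone, which raised the median of all tested genes by 0.16, RRM2B passed with 0.39 (edgeR adjusted p = 0.0175), and it also passed on log2(FPKM + 1) values (limma adjusted p = 0.0498).

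Because RRM2 and RRM2B can each complete the enzyme, their shares were set side by side per length, as FPKM (counts scaled by gene length and library total) in the same library. RRM2 made up 0.57%, 0.989% and 0.635% of the FPKM of the 2 small subunits in the FKA libraries, against 54.1%, 60.0% and 70.6% in the control libraries. RRM2B was thus nearly all of the small-subunit message with FKA and the lesser part in control. The mean share was 0.731% ± 0.225 with FKA and 61.6% ± 8.39 in control (SD, n = 3 each), a difference of -60.8 percentage points (exact permutation test, two-sided, p = 0.1, the smallest that 3 against 3 allows). It is 1 of 5 ratios or shares compared in this way, and Benjamini-Hochberg adjustment over the 5 leaves each exact permutation p at 0.1. The 2 small subunits together had 28.0 ± 3.30 FPKM with FKA and 56.4 ± 7.81 FPKM in control (SD, n = 3 each). Relative to RRM1, RRM2 stood at a mean log2 ratio of -5.40 with FKA and 0.33 in control, and the groups did not overlap (exact permutation p = 0.1, two-sided).

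**Figure D2:**
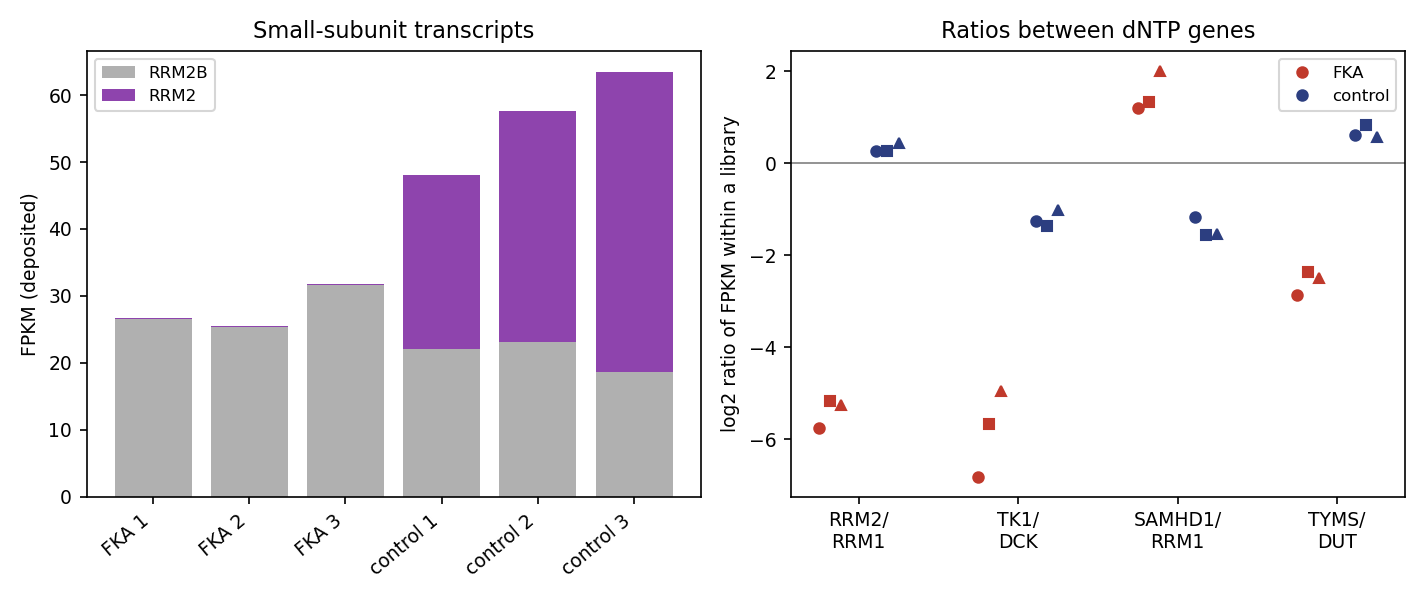
Left, deposited FPKM of RRM2 stacked on RRM2B in each library; right, log2 ratios of FPKM between pairs of genes within each library, FKA in red left of control in blue, replicates 1 to 3 as circle, square and triangle. The RRM2 part is below 1% of the bar in each FKA library, and no ratio overlaps between groups.

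TYMS, the target of fluorouracil-type drugs, went with the large falls. It had 4.54, 5.41 and 5.06 CPM with FKA, against 148, 185 and 203 CPM in control. The log2 fold change was -5.16 (SE 0.15, edgeR adjusted p = 3.7e-07), or 35.7-fold lower, and the FKA libraries were close to one another. By FPKM TYMS was the most abundant of the 9 genes in control (94.2 ± 15.9 FPKM) and only the seventh with FKA (2.94 ± 0.276 FPKM, SD, n = 3 each). ENOSF1, which overlaps TYMS exons on the opposite strand, stood at 53.5 to 76.8 CPM with FKA and 92.8 to 131 CPM in control (log2 fold change -0.79). The divergent transcript TYMSOS had 7, 11 and 10 counts with FKA and 52, 67 and 48 counts in control. The sources used here do not say whether counting used strand, so reads of these overlapping genes cannot be told apart.

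DUT and DTYMK, on either side of TYMS in the pathway, fell less than TYMS. DUT had 42.6, 36.0 and 36.9 CPM with FKA, against 124, 134 and 174 CPM in control (log2 fold change -1.90, SE 0.14, edgeR adjusted p = 1.2e-05). DTYMK had 6.52, 9.53 and 7.97 CPM with FKA, against 24.5, 35.4 and 37.6 CPM in control (-2.02, SE 0.20, edgeR adjusted p = 5.9e-05). Neither gene overlapped between groups. Within a library the log2 ratio of TYMS to DUT by FPKM averaged -2.58 with FKA and 0.68 in control, so TYMS was above DUT in each control library and below it in each FKA library (exact permutation p = 0.1, two-sided). Processed pseudogenes named after RRM2, TYMS and DUT number 3, 2 and 8 in GENCODE release 29, and the sources used here do not say how reads shared with them were counted. RRM1, RRM2 and DUT also share exon sequence with 1 annotated gene each (RRM1-AS1, AC007240.1 and AC023355.1), whose symbols were not found among the counted genes.

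The 2 salvage kinases differed in size of change. TK1, whose product is made for S phase and destroyed as cells leave mitosis, had 6, 13 and 21 counts with FKA, against 598, 806 and 1089 counts in control. This is 0.186, 0.406 and 0.604 CPM with FKA and 19.2, 22.5 and 32.4 CPM in control, a log2 fold change of -5.93 (SE 0.35, edgeR adjusted p = 6.0e-06). The FKA libraries had a coefficient of variation of 52.4%, and each lay far below the lowest control. DCK, which is expressed through the cell cycle, kept 31.1, 30.9 and 27.7 CPM with FKA, against 67.9, 86.0 and 97.1 CPM in control (-1.49, SE 0.14, edgeR adjusted p = 3.7e-05). The log2 ratio of TK1 to DCK by FPKM averaged -5.82 ± 0.939 with FKA and -1.21 ± 0.178 in control (SD, n = 3 each; exact permutation p = 0.1, two-sided). MOB1B, which shares exon sequence with DCK on the same strand in GENCODE release 29, moved the other way (151 to 160 CPM with FKA and 121 to 122 CPM in control).

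SAMHD1, the dNTP hydrolase, rose. It had 107, 128 and 177 CPM with FKA, against 61.8, 58.8 and 72.1 CPM in control, so each FKA library stood above the highest control. It averaged 138 ± 35.9 CPM with FKA and 64.2 ± 7.01 CPM in control (SD, n = 3 each), a log2 fold change of 1.10 (SE 0.17, edgeR adjusted p = 0.00066), or 2.14-fold higher. The within-batch differences were 0.80, 1.12 and 1.30. By FPKM SAMHD1 exceeded RRM1 in each FKA library, with log2 ratios of 1.197, 1.33 and 2.01, and lay below it in each control library, with -1.17, -1.56 and -1.55 (exact permutation p = 0.1, two-sided). The nearest log2 CPM profiles to SAMHD1 were those of CES1 (distance 0.244), MMAA (0.267) and UNC13D (0.274), among 11717 genes compared over 6 libraries. TLDC2, antisense to SAMHD1, had 12, 24 and 30 counts with FKA and 3, 2 and 3 counts in control, which is small beside the 3457 to 6158 counts of SAMHD1 with FKA.

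Markers of other cells were read beside SAMHD1, which monocytes and macrophages express strongly. Of 9 listed monocyte and macrophage markers 8 were tested, of which 5 rose, 1 fell and 2 were not called (median log2 fold change 1.30). Their summed level was 245 to 357 CPM with FKA and 162 to 178 CPM in control. CSF1R, the receptor of a macrophage growth factor, stood at 17.7 to 30.5 CPM with FKA and 1.73 to 2.26 CPM in control (log2 fold change 3.60). The lysosomal protein CD68, the most abundant of the list, stood at 126 to 167 CPM with FKA and 65.9 to 73.5 CPM in control (1.09). The other genes that rose were the integrin chain ITGAM (1.51), CD86 (2.46) and CD14 (2.22), the last at 0.90 to 1.35 CPM with FKA and 0.16 to 0.36 CPM in control. The Fc receptor FCGR1A fell (-1.82). LYZ was not called (0.16, edgeR adjusted p = 0.665), and it was called lower without FKA replicate 3 (-0.39, edgeR adjusted p = 0.0281). With FKA replicate 1 as the only FKA library, CD14 stood at 1.90. Of 10 mesenchymal markers 6 were tested, of which COL6A3 fell and 5 were not called (median 2.31). Without FKA replicate 1, and with no filter on low counts, those 5 were called higher. The summed level of the 10 was 10.2, 63.6 and 64.0 CPM in FKA replicates 1, 2 and 3 and 52.99, 34.0 and 19.3 CPM in control replicates 1, 2 and 3. The fibronectin gene FN1 had 0.59, 25.0 and 22.8 CPM with FKA and 5.47, 4.69 and 0.535 CPM in control, and the collagen gene COL1A1 had 0.342, 13.0 and 12.9 CPM with FKA and 2.41, 2.29 and 0.119 CPM in control. PDGFRB lay at 0.06 CPM or less throughout. Without FKA replicates 2 and 3, where collagen and fibronectin reads were high, the log2 fold change of SAMHD1 was 0.73 (edgeR adjusted p = 0.012), with the single FKA library assumed to vary like the controls. The same 7 genes were lower and SAMHD1 higher there, and RRM2 stood at -8.00 and TK1 at -7.03. The part of the monocyte and mesenchymal markers in the rise was not tested. Of 6 T and NK markers 1 was tested, NKG7, which fell and carried nearly all of a sum of 9.32 to 9.70 CPM with FKA and 21.3 to 24.3 CPM in control. B cell markers summed to at most 0.575 CPM with FKA and 0.535 CPM in control (1 tested, not called). Epithelial markers summed to 12.9 to 18.8 CPM with FKA and 19.2 to 21.8 CPM in control (3 tested, 1 fell). None of the 5 erythroid markers was found by symbol among the counted genes.

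**Figure D3:**
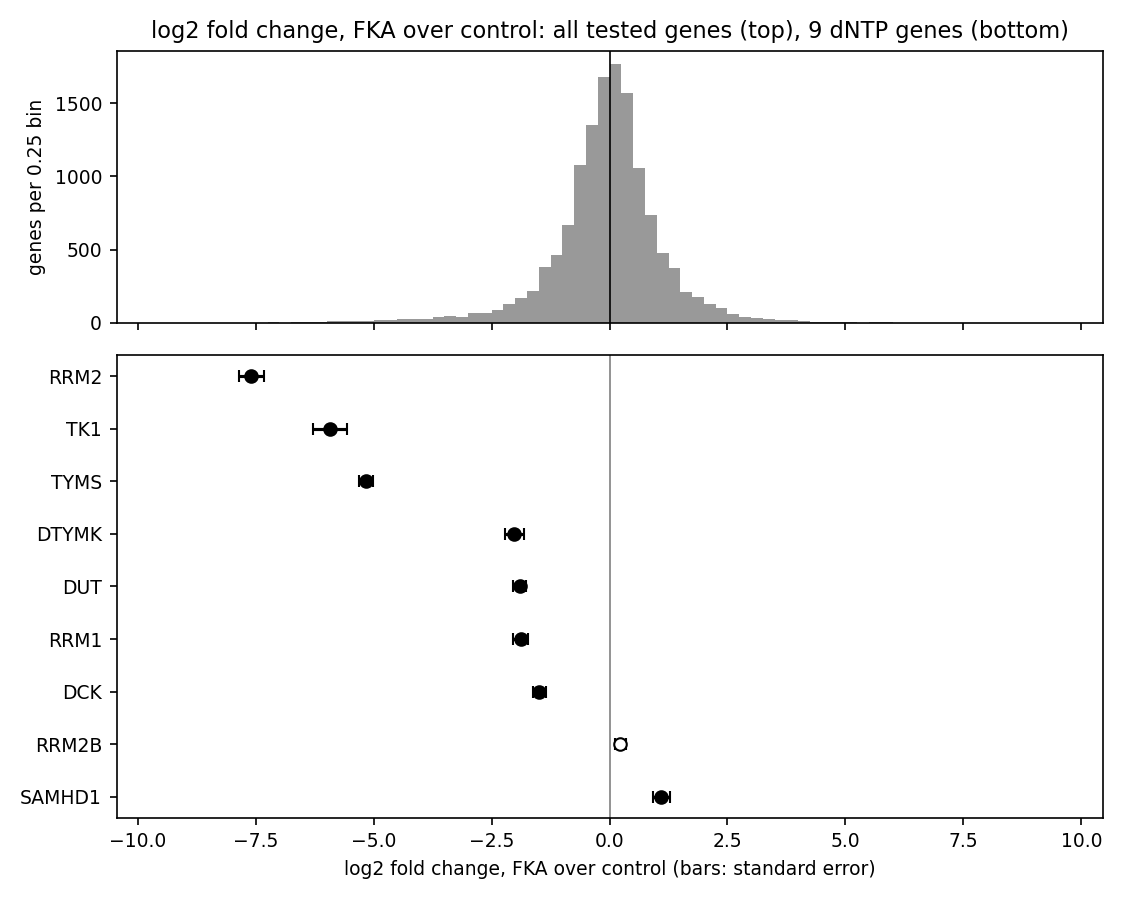
Top, number of tested genes per bin of log2 fold change, FKA over control; bottom, the log2 fold change of each of the 9 genes with its standard error, filled where edgeR's adjusted p was under 0.05. RRM2, TK1 and TYMS lie beyond -5, 4 genes lie between -2.02 and -1.49, RRM2B is open and SAMHD1 is the gene to the right that passed.

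Control libraries also differed among themselves. Control replicate 1 was the lowest control for each of the 7 genes that fell, and for 39.4% of all tested genes. Its RRM2 level was 0.678 and its DTYMK level 0.670 of the mean of the other controls, while RRM2B stood at 1.10 and SAMHD1 at 0.944 of that mean. The mitotic kinase CDK1 was at 56.6 CPM in control replicate 1 and at 159 and 180 CPM in control replicates 2 and 3, and the part of such differences in the values of the 7 genes was not tested. Without control replicate 1 the log2 fold changes of RRM2 and DTYMK were -7.76 and -2.20, close to the values with all libraries.

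Ordered by FPKM, the 9 genes changed places. With FKA the order was RRM2B, SAMHD1, DUT, DCK, RRM1, DTYMK, TYMS, TK1 and RRM2, where the ranges of RRM2B and SAMHD1, SAMHD1 and DUT, RRM1 and DTYMK, and TK1 and RRM2 overlapped. In control it was TYMS, DUT, RRM2, DCK, RRM1, DTYMK, RRM2B, TK1 and SAMHD1, with overlapping ranges between neighbours from RRM2 down to RRM2B and between TK1 and SAMHD1. The top gene with FKA, RRM2B at 27.8 ± 3.31 FPKM, was seventh in control at 21.3 ± 2.33 FPKM, and the last gene with FKA, RRM2 at 0.202 ± 0.0501 FPKM, held place 3 in control at 35.1 ± 9.44 FPKM (SD, n = 3 each).

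Genes that feed TYMS fell with it. The counts of each list stand against 30.5% of all tested genes lower and 29.3% higher with FKA. All 5 of the listed partners were lower, with a median log2 fold change of -1.32. Among them were MTHFD1 (-1.95), which interconverts one-carbon folates, the serine hydroxymethyltransferase SHMT2 (-1.40) and its cytosolic relative SHMT1 (-0.91). Of 8 kinases that build nucleoside triphosphates, 5 fell, GUK1 rose and 2 were not called (median -0.65). NME1, a nucleoside diphosphate kinase, changed by -2.26, its mitochondrial relative NME4 by -0.35 (edgeR adjusted p = 0.0182, 0.123 with library totals, and 0.0564 and 0.0678 without FKA replicate 1 or 2) and the guanylate kinase GUK1 by 0.64. NME1 and NME2 are neighbouring genes of similar sequence, so their reads may be shared. Without FKA replicates 2 and 3 the count was 1 lower, and with library totals it was 3 lower.

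Of the 4 listed genes of mitochondrial salvage 2 rose, 0 fell and 2 were not called (median 0.11). TK2, the mitochondrial thymidine kinase, had 53.2, 47.0 and 43.4 CPM with FKA, against 26.5, 26.5 and 27.3 CPM in control (log2 fold change 0.84, SE 0.10, edgeR adjusted p = 0.00019). DGUOK, the mitochondrial deoxyguanosine kinase, rose slightly (0.32, edgeR adjusted p = 0.0163, and 0.0646 without a filter on low counts), and also lost its call without FKA replicate 2 (0.0542). Of the pyrimidine nucleotide carriers, SLC25A33 stood at -0.40 and fell in the blocked fit (adjusted p = 0.0356 in edgeR) and without FKA replicate 3 (0.023), and SLC25A36 stood at -0.09, or at 0.08 with library totals.

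Among enzymes that break nucleotides down, the share that rose lay near that of all tested genes. Of 11 listed nucleotidases, phosphorylases and deaminases 8 were tested, of which 4 fell, 2 rose and 2 were not called (median -0.35), where 30.5% of all tested genes fell and 29.3% rose. The cytosolic deoxynucleotidase NT5C changed by -0.69, its mitochondrial relative NT5M by -0.59 and NT5C3B by 0.59. NT5M lost its call without control replicate 1 (edgeR adjusted p = 0.0718) and without FKA replicate 2 (0.0845). Without FKA replicates 2 and 3 this was 1 lower and 0 higher, with NT5C3B at 0.47 (edgeR adjusted p = 0.169), and with library totals it was 1 lower and 3 higher. Of 5 pool-cleaning hydrolases 4 fell and NUDT18 rose (median -0.77). The dCTP pyrophosphatase DCTPP1 was among those that fell (-1.23).

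The genes known to handle cytarabine were read as a list, although no library was given that drug. Of 8 genes 7 were tested, of which 4 fell, 2 rose and 1 was not called (median -0.34). DCK and SAMHD1, described above, are counted among them. SLC29A1, the transporter that takes up nucleosides and cytarabine, had 4.01, 4.38 and 5.47 CPM with FKA, against 56.9, 40.7 and 41.6 CPM in control. No FKA library came near the lowest control, and the log2 fold change was -3.33 (SE 0.18, edgeR adjusted p = 4.5e-06). Nucleoside transporters were also counted apart, with 2 of 3 tested and both lower (median -1.91). SLC29A1 was 1 of them. SLC29A2 fell less (-0.49) and SLC28A3 was too low to test, and neither is among the 8 cytarabine genes. DCTD, which deaminates dCMP, fell (-0.67), as did CMPK1, which phosphorylates CMP (-0.31, edgeR adjusted p = 0.0119, and 0.135 with library totals). NT5C2, a nucleotidase, rose by 0.37 (edgeR adjusted p = 0.0319), a call that was lost without FKA replicate 1 (0.0913), FKA replicate 2 (0.0786) or control replicate 1 (0.0506). NT5C3A stood at -0.34 (edgeR adjusted p = 0.0539, and 0.0211 with the batch as a block), and it also passed without control replicate 2 (0.0237) or FKA replicate 1 (0.0418). The cytidine deaminase CDA had 0 counts in the FKA libraries and 1 count in the control libraries. Without FKA replicates 2 and 3 the list had 3 lower and 1 higher.

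Factors that act on these genes or their products were mostly lower. Of 13 E2F factors, DP partners and pocket proteins 11 fell and 1 was not called (median -0.86). The large falls were E2F2 (-7.18), the repressive factors E2F7 (-6.85) and E2F8 (-6.11), and the activator E2F1 (-4.44). RBL2, the pocket protein of resting cells, rose by 0.81, and TFDP2 was the gene not called (-0.58), though it passed without FKA replicate 2 (-0.89, edgeR adjusted p = 0.00714). With library totals, and without FKA replicates 2 and 3, 8 of these were lower. Of 5 genes listed around protein turnover and the replication checkpoint 4 fell (median -2.48) and FZR1 was not called (0.18). The kinase CHEK1 stood at -3.72, CDC20 at -3.59 and CCNF, the cyclin that targets RRM2 protein, at -2.48. Whether CDC20 or FZR1 acts on RRM2 or TK1 protein in these cells was not tested. The control level of CCNF was uneven, with 11.1 CPM in replicate 1 and 30.7 and 31.6 CPM in the other controls.

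Of the 6 genes listed around SAMHD1 phosphorylation 4 fell and 2 were not called (median -0.84). CDK1 (-4.34), cyclin A2 (CCNA2, -3.46), CDK2 (-1.05) and CDK6 (-0.62) were lower, and CDKN1A (0.03) and CDKN1B (0.09) did not pass. CDKN1A was below 0 without FKA replicate 3 (-0.17) and CDKN1B without control replicate 1 (-0.06). SAMHD1 phosphorylation itself was not measured. Of 5 genes listed around the induction of RRM2B 2 fell, FOXO3 (-0.25) among them, SESN1 rose (0.57), and FOXO1 (0.45, and past the threshold in the blocked edgeR fit with adjusted p = 0.0142) and MDM2 (-0.28) did not pass (median -0.25). MDM2 passed without FKA replicate 3, at -0.59 (edgeR adjusted p = 0.00919). FOXO3 lost its call when scaled by totals (edgeR adjusted p = 0.458) and when any 1 library other than control replicate 1 was left out (0.059 to 0.125), and SESN1 lost its call without FKA replicates 2 and 3 (edgeR adjusted p = 0.121). Of 10 interferon-stimulated genes, a class to which SAMHD1 belongs in some cells, 5 rose and 5 were not called (median 0.60). IFI6 stood at 3.05, IFIT1 at 2.15, IFIT3 at 2.07 and IRF9 at 1.33. OAS1 rose by 0.62 (edgeR adjusted p = 0.0237). Its call was lost without control replicate 2 or 3, or FKA replicate 1 or 2 (edgeR adjusted p = 0.0562 to 0.0911). MX1 went the other way (-1.55, edgeR adjusted p = 0.0643) and was called lower without FKA replicate 1 (-2.61, edgeR adjusted p = 0.0141). IRF1 stood at -0.20 and was called lower without control replicate 1 (-0.45, edgeR adjusted p = 0.0174). IFIT1 had 1.46, 1.47 and 0.316 CPM with FKA, the last close to the 0.196 to 0.268 CPM of the controls, and was not called on log2(FPKM + 1) values (limma adjusted p = 0.0852).

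**Figure D4:**
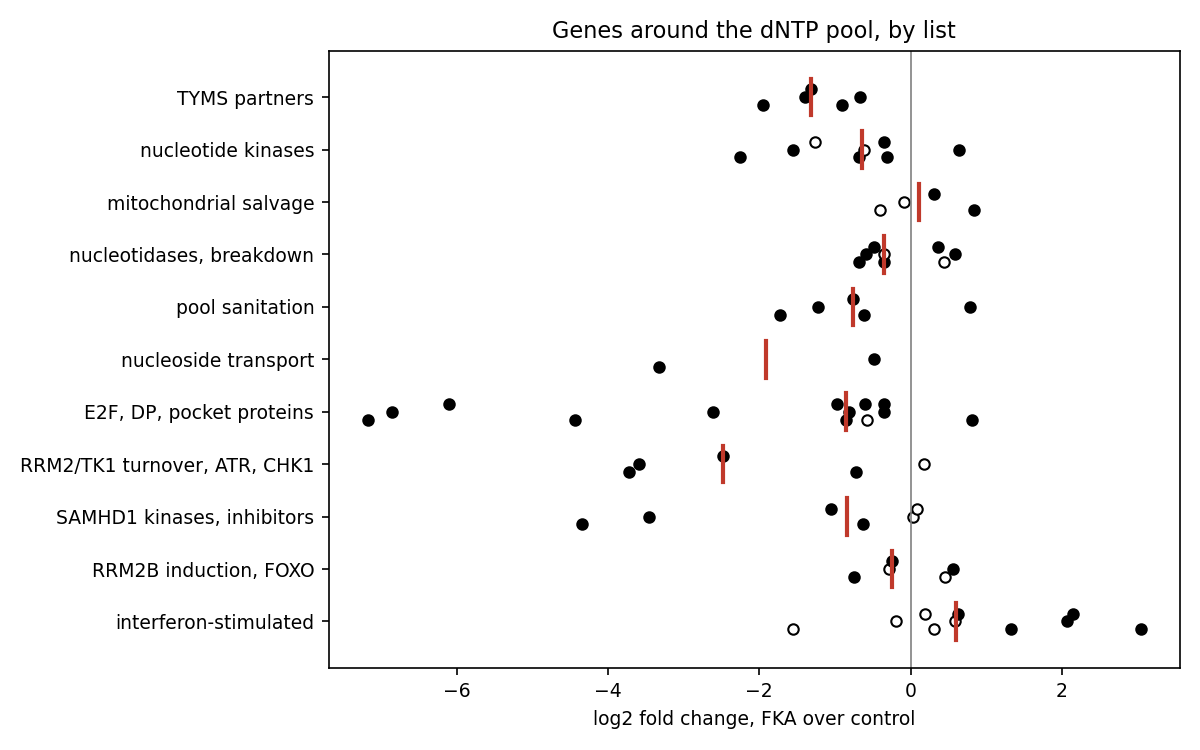
Each point is the log2 fold change (FKA over control) of 1 tested gene, by list, filled where edgeR's adjusted p was under 0.05; red bars are list medians. The median of the mitochondrial salvage list lies at 0.11 and that of the interferon-stimulated list at 0.60, and the other medians lie below 0.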

How the data were processed

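The authors deposited whole-number read counts per gene symbol and FPKM values for 21857 genes, per the file headers with 1 column for each of 6 libraries. The sources used here name no counting tool, annotation or strand setting. Builds named in the submitters' processing notes are GRCm38 and mm10, mouse builds, while 20649 symbols (94.5%) matched human RefSeq genes. Coordinates printed are those of RefSeq. The deposited FPKM equal counts over column total and 1 length per gene (largest relative deviation 8.4e-07).

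Counts were fitted in R 4.3.3 with edgeR 4.0.16 (filterByExpr, TMM, quasi-likelihood test between FKA and control libraries, Benjamini-Hochberg adjustment over 13531 genes, threshold 0.05). The procedure was also run on simulated counts in which few genes changed, equally often up and down. That simulation does not cover data where 59.8% of tested genes pass, nor the choice of scaling. Ratios between genes used FPKM and exact permutation tests. Alternatives used DESeq2 1.42.0, limma 3.58.1, other scalings and filters, and fewer libraries. Replicate numbers equal the batch label, which pairs the libraries; deviations from group means correlated by 0.05, 0.34 and -0.08 within batches 1, 2 and 3. Replicates of a group differed by more than sampling noise (21.7 to 66.3 chi-square units per degree of freedom), so none was a copy.

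The genes and lists were chosen with earlier results of these data known. All 9 genes are described; from each list up to 4 called genes with the largest change are named, plus members that moved against the rest or lost a call, the latter chosen after their values were seen. Some genes of the lists are counted but not reported here by name. The nearest profiles are the 3 genes with the smallest distance between centred log2 CPM profiles, among genes averaging 50 counts or more in 1 of the groups. Promoter words were searched in RefSeq sequences.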

Additional observations from a re-analysis of the deposited data

How the results depend on the processing

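All 7 falls and the SAMHD1 rise kept their direction and call under each of the 17 alternatives run per gene. RRM2B passed with library totals (0.39), on log2(FPKM + 1) (0.37, also for genes averaging 1 FPKM or more) and on log2(FPKM + 0.1) (0.39), so that 2 of the 9 genes were then higher; the FPKM fits use library totals. The batch as a replicate block changed no call among the 9 genes (RRM2 at -7.59, SAMHD1 at 1.07, RRM2B at 0.23 with edgeR adjusted p = 0.153). On log2(FPKM + 1) RRM2 stood at -4.88 and TK1 at -3.54, where the added 1 exceeds their FPKM in FKA libraries. Leaving out 1 library gave -7.76 to -7.37 for RRM2, -6.36 to -5.60 for TK1, 0.87 to 1.25 for SAMHD1 and 0.12 to 0.30 for RRM2B. Without FKA replicates 2 and 3 together, 4619 of all genes were called, 2020 higher and 2599 lower, where fewer samples enter. The ratios between genes kept their sign throughout, at an exact p that cannot pass 0.05; by batch differences the smallest p is 0.25. Counts below 30 limit RRM2 and TK1 in the FKA libraries.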
